A study of Mus musculus with 7 samples.

Results

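The proteins of the cytosolic ribosome were followed as 58 genes in mouse liver, 37 of the large and 21 of the small subunit, among 19938 genes with at least 1 probe set of a single gene symbol. Genes were taken by symbol, as Rpl, Rplp or Rps followed by a number and at most one of the letters a, l or x, and where a gene had several probe sets the one with the highest mean over the 7 arrays was used. Total RNA of the left liver lobe was measured on a whole-transcript array (Affymetrix GeneChip Mouse Gene 1.0 ST), with 1 array per mouse. The control group held 4 males with 1 floxed allele of Trpm6 (Trpm6 +/fl), at 12 weeks for control 1 and 2 and 13 weeks for control 3 and 4. The Trpm6-deficient group held 3 males in which both alleles lacked exon 17 (Trpm6 Δ17/Δ17;Sox2-Cre), at 13 weeks for Trpm6-deficient 1 and 3 and 12 weeks for Trpm6-deficient 2. All were littermates on a C57BL/6 background without further treatment. Sox2-Cre acts in the early embryo, so the deletion reached the whole body, and the mutants are known to grow poorly and to live short, which means that the liver was compared in mice that also differed elsewhere. The question was whether the loss of Trpm6, a channel kinase gene of magnesium uptake, went with other levels of ribosomal protein transcripts.

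Ribosomal proteins hold the ribosomal RNAs of both subunits in shape, and the large subunit joins amino acids while the small subunit reads the messenger RNA. Their transcripts are short and abundant in every cell, and they begin with a C and a run of pyrimidines, the 5′ TOP motif, through which mTORC1 and the RNA-binding protein Larp1 set their translation. In the liver, a tissue that secretes much protein, nutrient state acts on ribosome production through this control of translation and through ribosomal RNA synthesis.

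The starts of 6 genes are shown because they carry the highest, the lowest and the steadiest values below and because they differ in the pyrimidine run. Each line is 30 bases around the transcript start in RefSeq, 15 before and 15 from it, on the gene's own strand (assembly GRCm38.p6). Capitals mark a C followed by at least 4 further pyrimidines that begins within 10 bases of the start.
Rpl28 (chr7:4792950-4792979, plus strand): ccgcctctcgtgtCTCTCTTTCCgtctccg
Rpl38 (chr11:114668565-114668594, plus strand): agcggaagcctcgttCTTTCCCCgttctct
Rps6 (chr4:86857353-86857382, minus strand): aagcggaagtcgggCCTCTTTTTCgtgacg
Rps9 (chr7:3704026-3704055, plus strand): accgccttgtCTCTCTTTgtctcgggcctg
Rpl10 (chrX:74270801-74270830, plus strand): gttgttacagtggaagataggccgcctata
Rpl4 (chr9:64173372-64173401, plus strand): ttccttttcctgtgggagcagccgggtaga
The first 4 have such a run at the listed start and the last 2 do not. In Rpl4 a pyrimidine run begins more than 10 bases before the listed start and was therefore not counted.

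Trpm6 itself, the targeted gene, had log2 values of 5.53, 5.51, 5.50 and 5.50 in control 1 to 4 and of 5.50, 5.37 and 5.50 in Trpm6-deficient 1 to 3. The log2 change was -0.05 (standard error 0.05, limma adjusted p = 0.882), and the values of the groups met at 5.50. Every Trpm6 value lay below the median of its array, and where the probe set lies relative to exon 17 was not examined. Trpm6 therefore does not check the labels. Array medians lay between 6.43 and 6.48, and 9 of 10 hepatocyte markers were measured, with mean log2 values from 11.72 to 14.38. No label ties a mouse to a culture, litter number or array batch, and precision is limited by how many arrays there are.

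No ribosomal protein gene passed limma's test in livers without Trpm6. The count was 0 of 58 with an adjusted p up to 0.1, where 0.129% of all 35556 probe sets passed, and the lowest adjusted p among the 58 genes was 0.65. With an unadjusted p up to 0.05 4 genes were higher (Rpl38, Rpl28, Rpl21 and Rpl29, all of the large subunit), against 3.85% of all probe sets, and 0 were lower, against 3.03%. In 2 genes, Rpl38 and Rpl21, every Trpm6-deficient liver lay above every control, against 2.94% of all probe sets. In 0 genes every Trpm6-deficient liver lay below, against 2.38%.

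The median log2 change was 0.08 over the 37 genes of the large subunit, with 27 above 0 and 9 below, and 0.07 over the 21 genes of the small subunit, with 17 above and 4 below. Over all probe sets the median was 0.00. Single changes ran from -0.21 to 0.43 in the large and from -0.15 to 0.26 in the small subunit. The median standard error was 0.13 and the 95% interval of a gene reached a median of 0.32 to either side, so that changes of the size of these medians were not detectable gene by gene. Without Trpm6-deficient 1 the medians were 0.01 for the large and -0.04 for the small subunit.

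**Figure D1:**
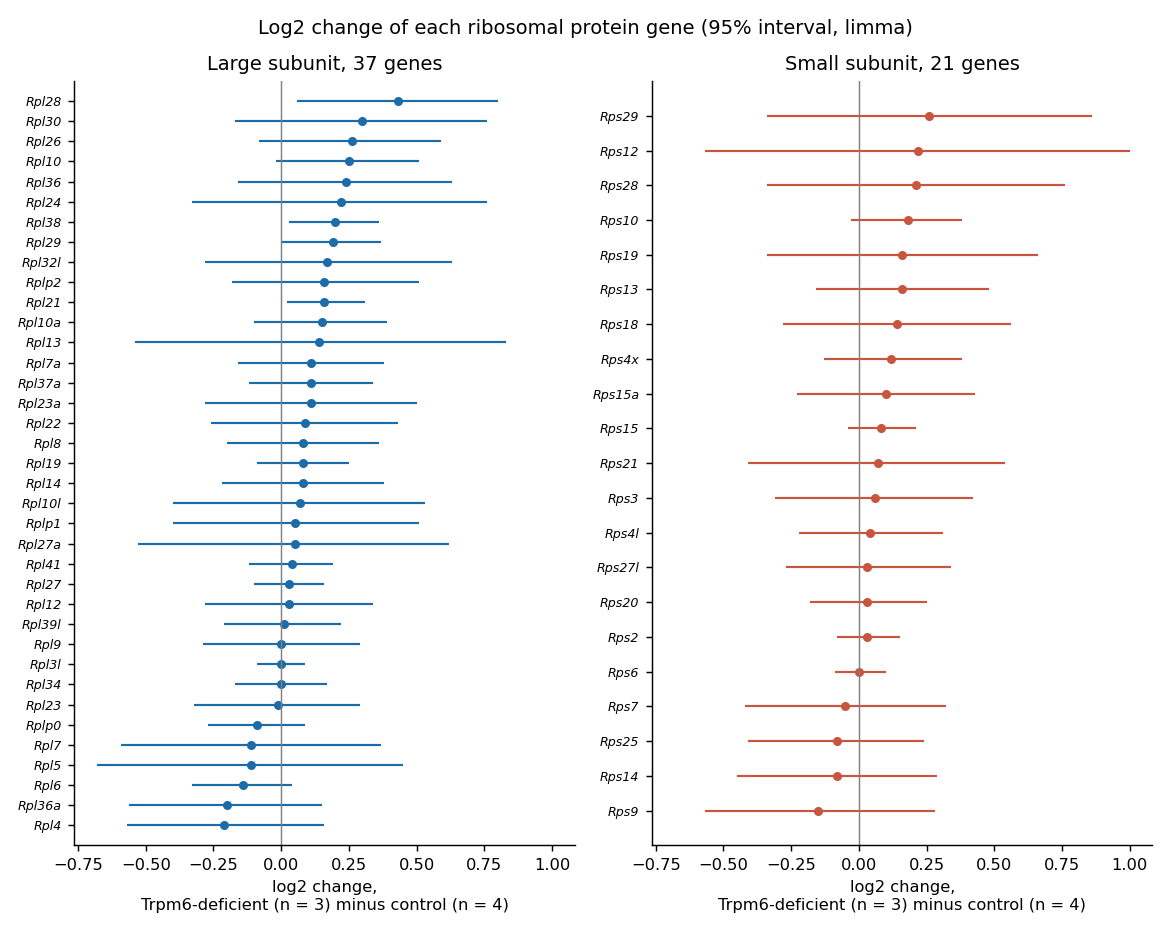
Log2 change of each ribosomal protein gene, Trpm6-deficient (n = 3) minus control (n = 4) on the x axis, with the 95% interval of limma as a line and the genes of the large (left) and small (right) subunit ordered by their change. Rpl28 lies highest at 0.43 and Rpl4 lowest at -0.21, and the intervals of 54 of 58 genes include 0 at an unadjusted p above 0.05.

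The values were therefore followed liver by liver. The shift of a liver is its log2 value minus the mean of the 4 controls, averaged over the genes of a subunit. For the large subunit it was 0.08, -0.06, 0.00 and -0.03 in control 1 to 4 and 0.26, -0.05 and 0.03 in Trpm6-deficient 1 to 3. For the small subunit it was 0.14, -0.06, 0.06 and -0.13 in control 1 to 4 and 0.34, -0.08 and -0.03 in Trpm6-deficient 1 to 3. In both subunits Trpm6-deficient 1 lay highest, control 1 came next, and the other Trpm6-deficient livers lay inside the range of the controls.

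The mean shift of the Trpm6-deficient group was 0.08 ± 0.16 (SD, n = 3) for the large and 0.07 ± 0.23 (SD, n = 3) for the small subunit, smaller than the spread between its own livers. Trpm6-deficient 1 was above the control mean in 33 of 37 large subunit genes and in 21 of 21 small subunit genes, against 47.2% of all probe sets. Control 1 to 4 were above it in 23, 10, 24 and 16 large subunit genes and in 15, 6, 16 and 3 small subunit genes. Trpm6-deficient 1 was the highest of the 7 arrays in 34 of 58 genes (58.6%), compared with 4697 of 35556 probe sets (13.2%), and the lowest in 0 genes. Trpm6-deficient 2 was the highest in 1 gene and the lowest in 13, and Trpm6-deficient 3 was the highest in 5 and the lowest in 8. Among the controls, control 1 was the highest in 8 genes and each of the others in at most 3.

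**Figure D2:**
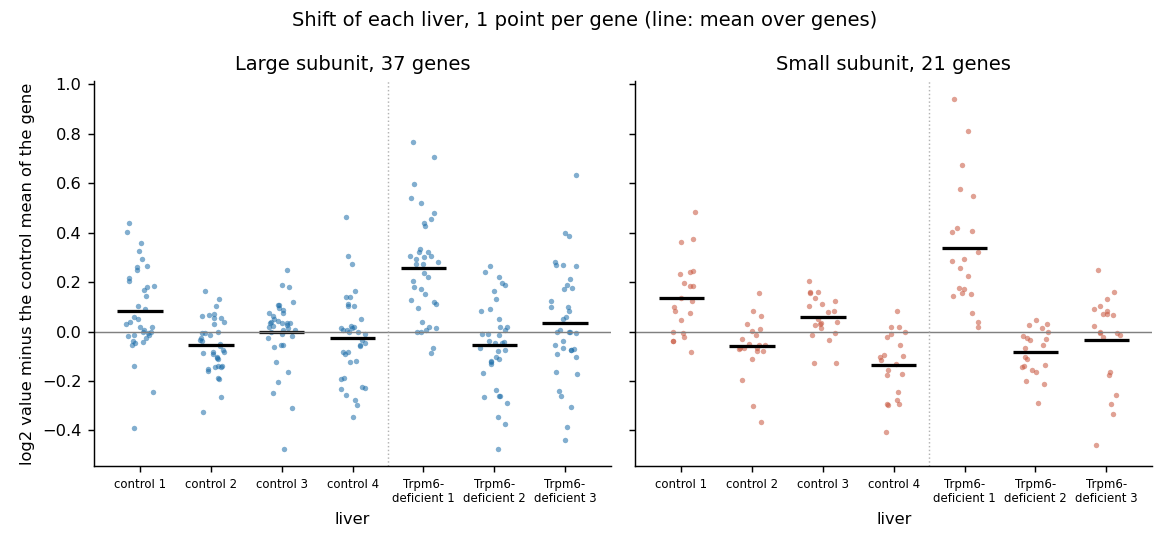
Shift of every ribosomal protein gene in each liver, as its log2 value minus the mean of the 4 controls (y axis), with 1 point per gene, the liver on the x axis, the large subunit (37 genes) left, the small subunit (21 genes) right, and the mean over genes as a black line. The line of Trpm6-deficient 1 stands at 0.26 and 0.34, while those of Trpm6-deficient 2 and 3 stay between -0.08 and 0.03.

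The subunits were also set against each other. The shift of the large minus that of the small subunit was -0.05, 0.00, -0.06 and 0.11 in control 1 to 4 and -0.08, 0.03 and 0.07 in Trpm6-deficient 1 to 3. These differences overlapped between the groups, and the widest gap, in control 4, belonged to a control.

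Rpl28, a large subunit protein that budding yeast lacks, had the highest change. Its log2 values were 12.46, 12.60, 12.78 and 12.98 in control 1 to 4 and 13.16, 12.90 and 13.34 in Trpm6-deficient 1 to 3. Trpm6-deficient 2 lay below control 4, so the groups overlapped by this pair. The log2 change was 0.43 (standard error 0.15, limma adjusted p = 0.672), and its 5 probe sets gave 0.41 to 0.43. Control 1 had the lowest Rpl28 value, as it did in 7 of the 58 genes.

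Rpl38, whose loss in mice disturbs the skeletal pattern, was at 11.56, 11.57, 11.67 and 11.63 in control 1 to 4 and at 11.93, 11.70 and 11.78 in Trpm6-deficient 1 to 3. All Trpm6-deficient livers lay above all controls, the closest pair being Trpm6-deficient 2 and control 3. The log2 change was 0.20 (standard error 0.07, limma adjusted p = 0.65), and its 4 probe sets gave 0.19 to 0.21, in 1 of which the groups overlapped. Rpl21, whose human counterpart is mutated in a hereditary form of hair loss, was at 13.24, 13.27, 13.08 and 13.22 in control 1 to 4 and at 13.32, 13.39 and 13.39 in Trpm6-deficient 1 to 3. These groups were apart too, with control 3 the lowest, and here Trpm6-deficient 1 was the lowest of its group. The log2 change of Rpl21 was 0.16 (standard error 0.06, limma adjusted p = 0.672), and its 9 probe sets gave 0.15 to 0.26.

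Rpl29, a protein of the large subunit also known for binding heparin, was at 10.43, 10.56, 10.60 and 10.68 in control 1 to 4 and at 10.68, 10.73 and 10.85 in Trpm6-deficient 1 to 3. The groups met at 10.68, and the log2 change was 0.19 (standard error 0.08, limma adjusted p = 0.713). Rpl10, the X-linked protein that joins the large subunit last and sits near its catalytic centre, was at 13.01, 12.89, 13.05 and 13.17 in control 1 to 4. It was at 13.35, 13.05 and 13.43 in Trpm6-deficient 1 to 3, with Trpm6-deficient 2 inside the control range, a log2 change of 0.25 (standard error 0.11, limma adjusted p = 0.767).

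Rpl30 and Rpl26 followed among the highest changes of the large subunit. Rpl30, which also binds the selenocysteine insertion elements of selenoprotein messengers, was at 6.56, 6.29, 6.35 and 7.02 in control 1 to 4 and at 6.98, 6.64 and 6.94 in Trpm6-deficient 1 to 3. Control 4 was the highest of all 7 arrays, and the log2 change was 0.30 (standard error 0.19, limma adjusted p = 0.847). Rpl26, which sits at the exit of the peptide tunnel, was at 9.74, 9.54, 9.74 and 9.74 in control 1 to 4 and at 10.23, 9.65 and 9.96 in Trpm6-deficient 1 to 3. Here 2 of 3 Trpm6-deficient livers lay above the controls, for a log2 change of 0.26 (standard error 0.14, limma adjusted p = 0.82).

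In the small subunit the highest change was that of Rps29, a small zinc-binding protein in the head of the subunit. Its values were 10.94, 10.50, 10.45 and 10.42 in control 1 to 4 and 11.39, 10.44 and 10.68 in Trpm6-deficient 1 to 3. Both arrays numbered 1 stood above the rest, and the log2 change was 0.26 (standard error 0.25, limma adjusted p = 0.886), or -0.02 without Trpm6-deficient 1. Rps12, a protein on the beak of the small subunit, was at 11.05, 10.49, 10.44 and 10.29 in control 1 to 4 and at 11.51, 10.28 and 10.56 in Trpm6-deficient 1 to 3. The same pair of arrays stood apart in Rps12, which had the widest 95% interval, from -0.57 to 1.00 around a log2 change of 0.22 (standard error 0.33, limma adjusted p = 0.929). Without Trpm6-deficient 1 its log2 change was -0.15.

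**Figure D3:**
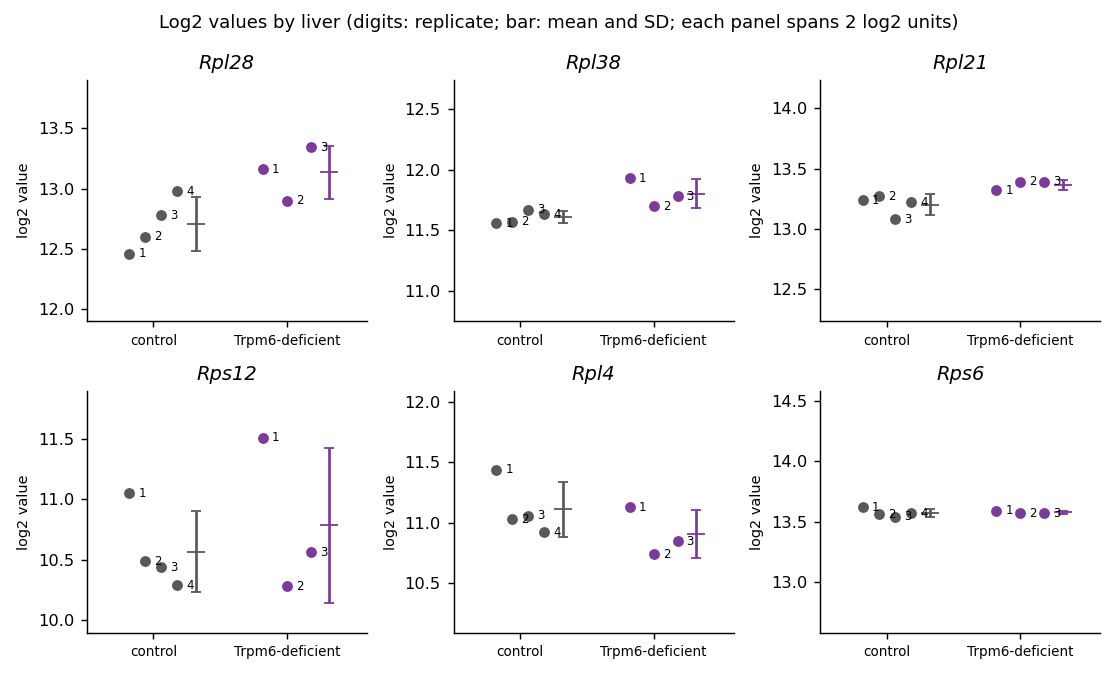
Log2 values (y axis, 2 log2 units in each panel) of 6 ribosomal protein genes in control (grey, n = 4) and Trpm6-deficient livers (purple, n = 3), with 1 point per liver, its replicate number beside it, and the mean with the SD as a bar. Rpl38 and Rpl21 are apart between the groups, Rps12 is high in both arrays numbered 1 (11.05 and 11.51), and Rps6 stays between 13.54 and 13.62.

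The lowest changes lay in Rpl4 and Rpl36a. Rpl4, which lines the narrow part of the peptide tunnel, was at 11.44, 11.03, 11.06 and 10.92 in control 1 to 4 and at 11.13, 10.74 and 10.85 in Trpm6-deficient 1 to 3. Trpm6-deficient 1 lay above 3 of 4 controls while the other Trpm6-deficient livers lay below every control, and the log2 change was -0.21 (standard error 0.15, limma adjusted p = 0.856). Rpl36a, an X-linked protein near the exit site for spent transfer RNA, was at 12.25, 12.12, 12.10 and 11.79 in control 1 to 4. It was at 12.00, 11.59 and 11.99 in Trpm6-deficient 1 to 3, where control 4 lay below 2 of 3 mutants, with a log2 change of -0.20 (standard error 0.15, limma adjusted p = 0.853).

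The log2 change of Rps9, at the entry of the messenger RNA channel, was -0.15 (standard error 0.18) and that of Rpl6, a eukaryotic protein of the large subunit, -0.14 (standard error 0.08). Rpl5, which carries 5S ribosomal RNA into the large subunit together with Rpl11 and binds Mdm2 when assembly stalls, had a log2 change of -0.11 (standard error 0.23). Its values were 12.20, 11.71, 11.83 and 11.45 in control 1 to 4 and 12.13, 11.51 and 11.41 in Trpm6-deficient 1 to 3, with both arrays numbered 1 the highest. None of these 3 genes passed, with limma adjusted p-values of 0.82 to 0.954.

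The P stalk, on which elongation factors dock, is built of Rplp0 and of pairs of Rplp1 and Rplp2. Rplp0, its base, had a log2 change of -0.09 (standard error 0.08), Rplp1 of 0.05 (standard error 0.19) and Rplp2 of 0.16 (standard error 0.14), with limma adjusted p-values of 0.877, 0.975 and 0.877. Rplp1 was at 13.07, 12.71, 13.01 and 12.82 in control 1 to 4 and at 13.38, 12.64 and 12.85 in Trpm6-deficient 1 to 3, again highest in both arrays numbered 1. Rplp2 rested on 1 probe set, and in its controls values of 6.44 to 6.46 stood beside 5.93 in control 1. Rpl12, at the foot of this stalk, had a log2 change of 0.03 (standard error 0.13), and Rpl10a, which forms the stalk on the other side of the large subunit, of 0.15 (standard error 0.10). Rpl12 also rested on 1 probe set. Rplp2 and Rpl12 had low mean log2 values of 6.39 and 6.12, where the median level of the 58 genes was 11.47.

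Rps6, the small subunit protein that S6 kinases phosphorylate downstream of mTORC1, was at 13.62, 13.56, 13.54 and 13.57 in control 1 to 4 and at 13.59, 13.57 and 13.57 in Trpm6-deficient 1 to 3. All 3 Trpm6-deficient livers lay within the control range, and the 95% interval of its change, from -0.09 to 0.10, was among the narrowest. Rps2, at the entry of the messenger RNA channel, was as even, with a log2 change of 0.03 (standard error 0.05) and a 95% interval from -0.08 to 0.15.

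Of the 58 genes 6 are paralogues of other ribosomal protein genes. Rpl3l is a gene of muscle, Rpl10l takes the place of X-linked Rpl10 in male germ cells, Rpl39l is a gene of the testis, and Rps27l is induced by p53. Their log2 changes were 0.00 for Rpl3l, 0.07 for Rpl10l, 0.01 for Rpl39l and 0.03 for Rps27l, and those of Rps4l and Rpl32l were 0.04 and 0.17. Rpl3l lay at 5.45 to 5.46 on all arrays and Rpl39l between 3.88 and 4.26, the latter below the lower quartile of every array (5.05 to 5.11), and whether either was above background was not examined. Rps27l, at 11.93 to 12.39, was not low in these livers. Of the genes they resemble, Rps4x had a log2 change of 0.12 (standard error 0.10) and Rpl10 that given above, while Rpl3, Rpl32, Rpl39 and Rps27 were listed only on probe sets with several symbols. The mean shift of the 6 paralogues was 0.19 in Trpm6-deficient 1, against 0.30 over the other 52 genes.

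The chosen probe sets were set beside the others. The 58 genes had 210 probe sets, of which 0 passed the adjusted test, 169 had a change above 0 and 39 below, with a median of 0.13. In 38 genes with several probe sets the changes were all above 0 for 26 genes, all below for 8 and of both signs for 3 (in 1 further gene a probe set was at 0.00 and the rest were below), and their median range within a gene was 0.07. A further 233 probe sets list a ribosomal protein symbol among several symbols. Over 189 of these, of the large subunit, the shift was 0.03, -0.01, 0.00 and -0.02 in control 1 to 4. In Trpm6-deficient 1 to 3 it was 0.26, 0.05 and 0.08, so by this mean all Trpm6-deficient livers lay above all controls. By the median over these probe sets they did not, with 0.04 in control 1 and 0.03 in Trpm6-deficient 2 and 3. Over 44 of the small subunit the shift was 0.15, -0.07, 0.02 and -0.10 in control 1 to 4 and 0.38, -0.11 and 0.03 in Trpm6-deficient 1 to 3. By the mean Trpm6-deficient 1 was highest in both, as in the chosen probe sets, and control 1 came next only in the small subunit. Trpm6-deficient 2 had the lowest mean of all livers in the small subunit. By the median over the small subunit probe sets Trpm6-deficient 1 was also highest, at 0.18. There control 3 and Trpm6-deficient 3 came next, both at 0.05, with control 1 at 0.01 and control 4 lowest at -0.07. Probe sets of one symbol are not independent readings, since ribosomal protein genes have many near-identical processed copies in the genome, and which copy a probe set reads could not be told. Of the 14 probe sets of Rps12, 13 pairs held the same values on all 7 arrays.

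**Figure D4:**
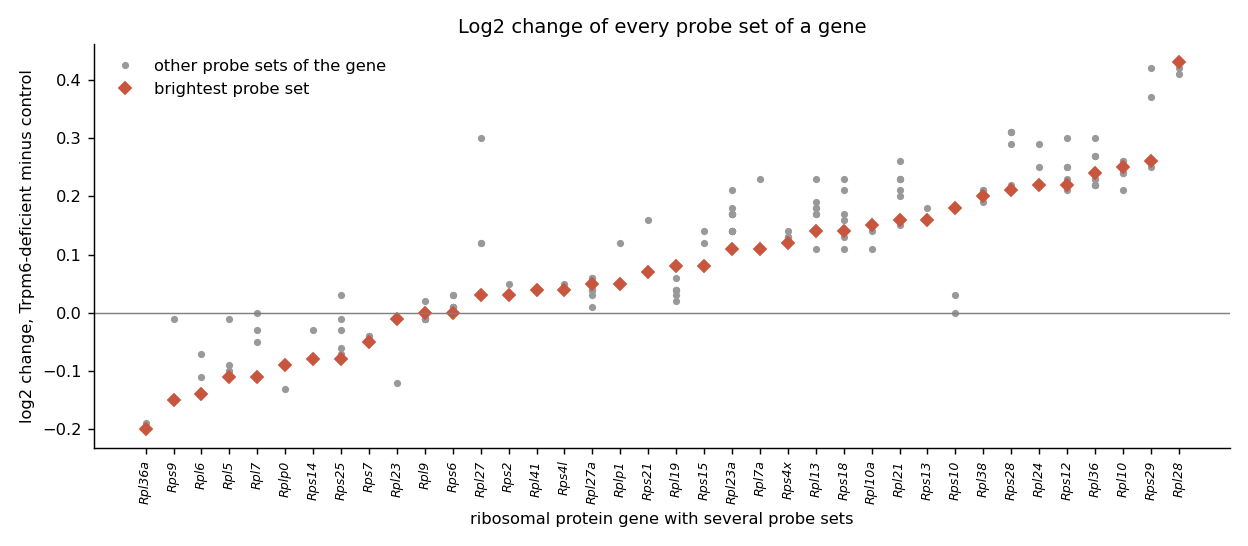
Log2 change, Trpm6-deficient (n = 3) minus control (n = 4) on the y axis, of every probe set of the 38 ribosomal protein genes with several probe sets, ordered on the x axis by the brightest one (red diamond), with the others in grey. The probe sets of Rpl28 lie together at 0.41 to 0.43, whereas those of Rpl27 spread from 0.03 to 0.30.

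The replicate numbers of the labels were taken to pair the arrays, although no label says what they stand for. Deviations of same-numbered arrays correlated with r of 0.439, 0.326 and 0.111 for numbers 1, 2 and 3. Those of control 4 and Trpm6-deficient 3 correlated with r of 0.325. The arrays numbered 1 differed in age, at 12 weeks in control 1 and 13 weeks in Trpm6-deficient 1. With the number as a block, which leaves control 4 without a partner, 0 of 58 genes passed with an adjusted p up to 0.1 (0.00281% of all probe sets). With an unadjusted p up to 0.05 4 were higher, against 4.89% of all probe sets, and 1 was lower, against 4.38%. The higher genes were Rpl30, Rpl28, Rpl29 and Rpl10, and the lower one was Rpl4. Their adjusted p-values in limma were 0.388 to 0.443 with the block and up to 0.931 over all alternatives.

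Rpl30 differed by 0.42, 0.35 and 0.59 within numbers 1, 2 and 3, a blocked log2 change of 0.45 (standard error 0.07). It rests on 1 probe set with a mean log2 value of 6.68, where the median level of the 58 genes was 11.47. Rpl4 differed by -0.31, -0.29 and -0.21, a blocked log2 change of -0.27 (standard error 0.05). All 3 differences were above 0 in 14 of 58 genes, against 12.9% of all probe sets, and below 0 in 5, against 12.4%. Over whole subunits the median difference was 0.16 within number 1, 0.01 within number 2 and 0.01 within number 3 for the large, and 0.19, -0.04 and -0.03 for the small subunit.

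Age gave a further split of the livers. At 13 weeks (2 control and 2 Trpm6-deficient livers) the median difference was 0.16 for the large and 0.12 for the small subunit. At 12 weeks (2 control livers and Trpm6-deficient 2) it was -0.04 and -0.13. Within an age the livers also differed, since Trpm6-deficient 3, as old as Trpm6-deficient 1, had shifts of 0.03 and -0.03 against 0.26 and 0.34, and control 2, as old as control 1, had -0.06 and -0.06 against 0.08 and 0.14.

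Markers of other cells were read in the same livers. The 8 markers of the sinusoidal endothelium had a mean difference from the control mean of -0.61 in control 1 and -0.38 in Trpm6-deficient 1, and between -0.25 and 0.38 in the other livers. The 8 Kupffer cell markers were at -0.58 in control 1, at 0.06 to 0.31 in the other controls and at -0.32 to -0.27 in the Trpm6-deficient livers. The 2 livers with the highest ribosomal protein values thus had the lowest values of endothelial markers. The 9 lymphocyte markers were at -0.25 in control 1, 0.00 to 0.16 in the other controls and -0.14 to -0.11 in the Trpm6-deficient livers. The 9 hepatocyte markers stayed between -0.08 and 0.07 in all livers. Of 8 erythroid markers 3 were measured, with log2 changes of -1.66 for Alas2, the heme synthesis gene of red cell precursors (standard error 0.26, limma adjusted p = 0.192), of -0.09 for Epb42 (adjusted p = 0.879) and of -0.01 for Slc4a1 (adjusted p = 0.992). In RNA of whole tissue fewer cells of a type and less RNA per cell cannot be told apart, and the part of these markers in the ribosomal protein values was not tested.

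Genes that work with the ribosome were read in the same way. Of 18 listed 5′ TOP genes that encode no ribosomal protein 16 were measured, and their median log2 change was -0.04 (-0.12 to 0.00 with single arrays left out). At an unadjusted p up to 0.05, 0 were higher and 1 lower, against 3.85% and 3.03% of all probe sets. The lower one was Eif4b, an initiation factor that S6 kinase phosphorylates, at -0.33 (standard error 0.09, limma adjusted p = 0.552), while Eef2, the translocation factor, was at -0.10 (adjusted p = 0.786). Of 30 genes named as initiation factors 25 were measured, with a median of -0.05, 0 higher and 1 lower at that unadjusted p. The lower one was Eif4h at -0.14 (limma adjusted p = 0.686). Eif5a, which helps peptide bonds form, had the next smallest p without reaching that threshold and was at 0.20 (adjusted p = 0.82). In the 5′ TOP list the shift was 0.05, 0.01, 0.03 and -0.09 in control 1 to 4 and 0.08, -0.07 and -0.14 in Trpm6-deficient 1 to 3. By this mean Trpm6-deficient 1 was highest and control 1 next, as in the ribosomal proteins. By the median over the 16 genes Trpm6-deficient 1 was highest at 0.10, but control 3 came next at 0.05, and control 1 was at -0.01. Trpm6-deficient 1 was the highest array in 5 of these 16 genes (31.2%). Among the initiation factors its shift was -0.07, inside the control range of -0.10 to 0.08.

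Ribosome biogenesis factors were measured for 51 of 52 genes, with a median log2 change of -0.03 (-0.10 to 0.01 with single arrays left out). At an unadjusted p up to 0.05, 0 were higher and 1 lower, against 3.85% and 3.03% of all probe sets. In this list Trpm6-deficient 1 had the lowest shift of all livers, -0.16, and was the lowest array in 21 of 51 genes, compared with 5064 of 35556 probe sets. Trpm6-deficient 3 had the highest, 0.06, and was the highest array in 20 genes (39.2%), compared with 17.4% of all probe sets, so the livers without Trpm6 lay at both ends of this list. Nop16, a nucleolar factor, was at -0.34 (standard error 0.10, limma adjusted p = 0.54) and Nop10, of the pseudouridylation complex, at -0.25 (adjusted p = 0.77). Of 24 genes of the mTORC1 pathway and its action on ribosomal protein messengers 22 were measured, with a median of -0.10, which ran from -0.15 to -0.04 when single arrays were left out. Of these 0 were higher and 3 lower at that unadjusted p. The lower ones were Eef2k, the kinase of elongation factor Eef2, at -0.16 (adjusted p = 0.671) and Eif4ebp1, the inhibitor of cap binding, at -0.24 (adjusted p = 0.672). The last was Deptor, an inhibitor of mTOR, at -0.31 (limma adjusted p = 0.693). This list holds activators as well as inhibitors, so its median gives no direction of the pathway.

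Rps3a1, Fau and Rpsa encode small subunit proteins whose symbols fall outside the pattern. Rps3a1 was at 8.35, 7.96, 7.42 and 7.31 in control 1 to 4 and at 8.47, 7.54 and 7.53 in Trpm6-deficient 1 to 3. Both arrays numbered 1 were its highest, and the log2 change was 0.09 (standard error 0.34, limma adjusted p = 0.981). Fau, which encodes its ribosomal protein fused to a ubiquitin-like one, had a log2 change of 0.08 and Rpsa, also described as a laminin receptor, of -0.03, with limma adjusted p-values of 0.932 and 0.985. Rpl7l1, a nucleolar relative of Rpl7 that is not counted among the known proteins of the ribosome, had a log2 change of -0.20 (limma adjusted p = 0.834).

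Of the other lists, that of 85 respiratory chain and ATP synthase genes had the highest shift in Trpm6-deficient 1. Besides subunits it holds Sdhaf1, Sdhaf2, Sdhaf3 and Sdhaf4, which encode assembly factors. The median log2 change of the 85 genes was 0.05 (0.00 to 0.06 with single arrays left out), and 0 were past the adjusted test. At an unadjusted p up to 0.05, 11 were higher and 3 lower, against 3.85% and 3.03% of all probe sets. Trpm6-deficient 1 stood at a shift of 0.20 and was the highest array in 39 of 85 genes (45.9%), while the other 6 livers lay between -0.04 and 0.03. Atp5h was at 0.32 (standard error 0.06, limma adjusted p = 0.274) and Ndufa3, of complex I, at 0.31 (adjusted p = 0.429). The 77 mitochondrial ribosomal proteins had a median of 0.00, with 5 higher, led by Mrps6 at 0.29 (adjusted p = 0.54) and Mrps27 at 0.35 (adjusted p = 0.647), and 2 lower, and a shift of 0.08 in Trpm6-deficient 1.

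**Figure D5:**
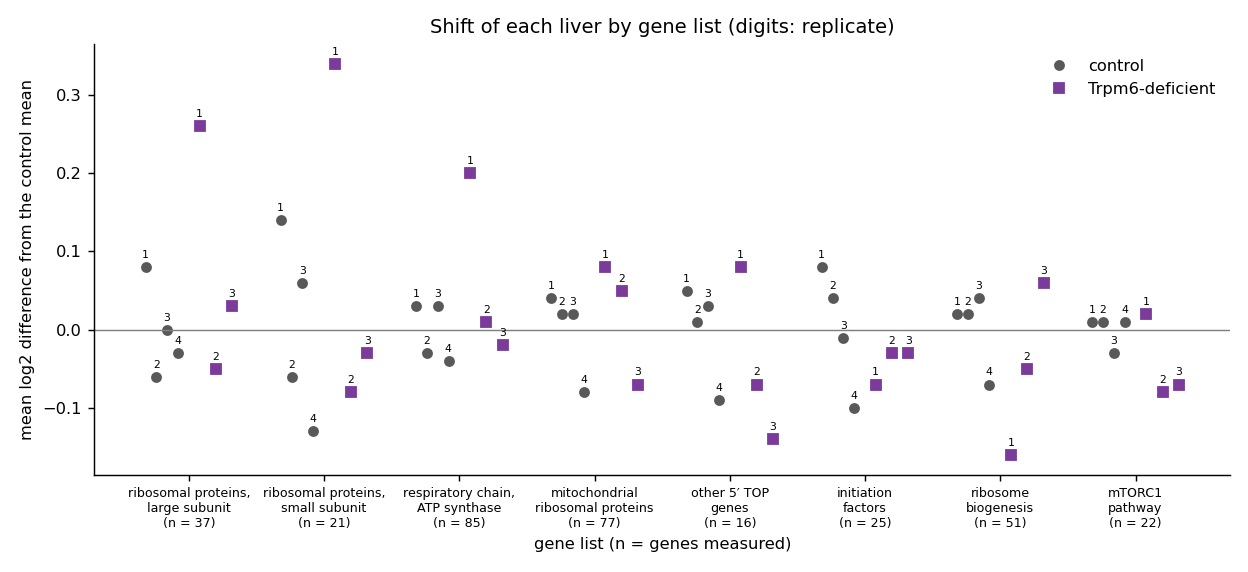
Shift of each liver, as the mean log2 difference from the control mean (y axis), over the ribosomal proteins and 6 related gene lists (x axis, with the genes measured), controls as grey circles and Trpm6-deficient livers as purple squares with the replicate number beside each. Trpm6-deficient 1 stands at 0.26 and 0.34 in the subunits, at 0.20 in the respiratory chain and at -0.16 in ribosome biogenesis.

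A promoter sequence was matched to 46 of the 58 genes by gene ID in a table from RefSeq, and the other 12 were not analysed here. Each ran from 250 bases before to 50 bases after a transcript start. The pyrimidine run marked in the sequences above was present at a listed start of 28 of 46 genes (60.9%) and of 34.4% of 27025 genes. In the whole windows, on either strand, CTTCCG, the core bound by GABPA and other ETS factors, was found in 67.4% of the 46 genes and in 18.8% of all genes. GGGCGG, the letters of the SP1 site, was found in 56.5% and 38.2%, and AAGATGG, those of the YY1 site, in 8.7% and 7.28%. CTTCC can be read both as pyrimidine run and as part of CTTCCG, so these counts overlap. The 28 genes with the run had a median log2 change of 0.08 and a median shift of 0.23 in Trpm6-deficient 1, and the 18 without it had 0.07 and 0.30. Listed starts can differ from those used in liver, and these matches are descriptions of the letters.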

How the data were processed

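Total RNA of 7 livers was hybridised to 7 arrays. The authors made the deposited log2 values with RMA in Affymetrix Expression Console 1.4.0, which corrects background, normalises between arrays by quantiles and summarises probes into 35556 probe sets. The platform annotation gave 1 gene symbol to 21789 probe sets, several to 1621 and none to 12146. Of 79 known proteins of the cytosolic ribosome 52 were members, 16 lay only on probe sets with several symbols, 3 fell outside the symbol pattern and 8 were not analysed here. The members, gene lists and rules for naming genes were chosen with earlier results of these data known.

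Values were fitted as deposited with limma 3.58.1 in R 4.3.3 (lmFit and eBayes, no covariate, the design of the study's methods), and p-values were adjusted over all 35556 probe sets by the method of Benjamini and Hochberg, with calls at 0.1 or less. No p-value was given for a list. The scripts were tested on simulated data. Genes were named where they had the 5 highest or lowest changes, the 5 smallest p-values, the 3 highest or lowest levels or the 3 widest control SDs, or belonged to the P stalk, the paralogues or a short fixed list, in which Rpl3 and Rpl11 had no single-symbol probe set. In related lists the 2 genes with the smallest p were named, and in the mTORC1 list also Deptor.

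The replicate numbers were taken to pair the arrays because deviations from the group means correlated between same-numbered arrays, with r of 0.439, 0.326 and 0.111 over probe sets. The labels do not say what the numbers stand for, and control 4 and Trpm6-deficient 3 correlated at 0.325. Each array is 1 mouse. The p-values set the difference of the groups against the spread between these mice, which limma moderates across all probe sets.

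Alternatives were each array left out, age as a covariate, the replicate block, the mean of a gene's probe sets, quantile normalisation, median centring, a level of at least 5, another variance prior, a stricter threshold and known proteins alone. Leaving out both arrays numbered 1, adding probe sets with several symbols and differences within replicate numbers were chosen after seeing the data.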

Additional observations from a re-analysis of the deposited data

Results flagged for a closer look

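In 6 of 60 sets of 4 control values 1 array stood apart from the other 3, where chance gives about 1 in 20. Control 1 was high in Rps29 (10.94, next 10.50) and Rpl7a, an RNA-binding protein of the large subunit (12.36, next 12.09), and low in Rplp2 (5.93, next 6.44). Control 3 was low in Rpl14, a large subunit protein (7.51, next 7.92), and in Rpl32l (7.54, next 8.16). Control 2 was low in Rpl26 (9.54, next 9.74). Rpl14, Rpl32l, Rpl26 and Rplp2 each rest on 1 probe set.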

How the results depend on the processing

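No member passed the adjusted test under any alternative, whereas 1 to 70 of all probe sets did, against 46 with all arrays and no block. With single arrays left out the subunit medians ran from 0.01 to 0.12 (large) and from -0.04 to 0.13 (small). Members higher with an unadjusted p up to 0.05 ran from 1 (without control 1 or 2) to 9 (without Trpm6-deficient 2). Of all probe sets 3.17%, 3.29% and 3.45% were higher in these settings, in that order. Without Trpm6-deficient 1 or 3 there were 2 higher (4.54% and 3.10%). With single arrays left out 0 were lower, against 2.24% to 3.36% of all probe sets. Members without overlap ran from 2 to 13 higher (13 without Trpm6-deficient 2, 6 without Trpm6-deficient 3, 5 without control 4, 4 without control 3, against 6.29%, 5.43%, 4.64% and 3.99% of all probe sets) and from 0 to 2 lower (2 without control 4 or Trpm6-deficient 1, against 3.95% and 6.44%), as fewer arrays make such counts larger by construction. Signs turned in Rpl5 (-0.34 to 0.02), Rpl10l (-0.04 to 0.25), Rpl39l (-0.06 to 0.07), Rplp1 (-0.16 to 0.21), Rpl12 (-0.05 to 0.13), Rps27l (-0.10 to 0.13), Rps12 (-0.15 to 0.47), Rps29 (-0.02 to 0.46), Rps4l (-0.07 to 0.14) and Rps9 (-0.31 to 0.01), and the cause was not tested. Rpl39l was -0.01 with age as a covariate, -0.02 after quantile normalisation and -0.01 after median centring. With the replicate block 1 member was lower with an unadjusted p up to 0.05, Rps27l was -0.01, and no adjusted call differed. Without both arrays numbered 1 the medians were 0.02 and 0.01, 0 members were higher and 1 lower at that p (4.11% and 3.43% of all probe sets), 4 and 2 did not overlap (9.36% and 8.81%), and Rpl10l was -0.03, Rplp1 -0.10, Rps27l -0.04 and Rps4l -0.08. At 12 weeks the medians were -0.04 and -0.13. Signal over background was not examined, as the deposited values hold no detection call.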
